A study of Mus musculus with 8 samples.

Results

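The replication-dependent histone cluster genes are the genes whose mouse symbols of the mm10 period begin with Hist1h, Hist2h, Hist3h or Hist4h. They were picked by symbol in the GENCODE M21 annotation and kept where the 8 libraries together held 10 or more counts. That left 56 of the 70 histone cluster symbols listed, out of 25321 genes with as many counts and 54232 listed identifiers. By product, 6 encode linker histone H1, 13 H2A, 16 H2B, 10 H3 and 11 H4. Most lie close together: 47 belong to the Hist1 cluster on chromosome 13, 5 to Hist2 on chromosome 3, 3 to Hist3 on chromosome 11, and 1, Hist4h4, lies on chromosome 6. All but 2, the processed pseudogenes Hist3h2bb-ps and Hist1h2al, are annotated as protein coding. Coordinates below are those of this annotation on GRCm38 (mm10), counted from 1.

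The RNA came from epidermis scraped off the shaved back skin of female mice that lacked REDD1 (KO) or were wild type (WT), all on an F1 background of C57Bl and 129. REDD1, encoded by Ddit4, restrains mTORC1 signalling under stress. The groups were KO and WT skin given the glucocorticoid fluocinolone acetonide (FA, 2 ug) 1 h before the phorbol ester TPA (4 ug), KO and WT skin given TPA alone, and KO and WT skin given the acetone vehicle (200 ul), all taken 24 h after TPA or vehicle. There was 1 library for each genotype with FA+TPA and with TPA, and there were 2 libraries for each genotype with vehicle. The labels do not say how many animals a library held, nor how the KO allele was made, so the p-values below rest on the variation among these samples, which may be technical. Ddit4 stood at 7.25 (KO) and 90.3 (WT) CPM with FA+TPA, 4.44 (KO) and 64.2 (WT) CPM with TPA, 18.8 and 18.6 CPM in KO vehicle and 128 and 117 CPM in WT vehicle skin, lower in each KO library than in any WT library.

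Histones are the proteins around which nuclear DNA is wrapped: H2A, H2B, H3 and H4 form the core of the nucleosome, and H1 binds the DNA between cores. Their replication-dependent genes are switched on in S phase, when newly made DNA needs new histones. The mRNAs of most such genes have no poly(A) tail and end instead just after a short conserved stem-loop, which the stem-loop binding protein Slbp recognises and which ties the mRNA's stability to DNA synthesis. In skin, dividing cells sit mainly in the basal layer of the epidermis and in hair follicles, and TPA is a classical inducer of epidermal proliferation.

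The stem-loops below are printed because they set the members apart from other mRNAs and differ between histone types. They were read from GENCODE M21 transcripts in the sense direction, with the 16 bases of the stem-loop in capitals and 5 flanking bases on each side in lower case.
Hist1h1c (H1): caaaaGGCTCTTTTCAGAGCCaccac
Hist1h2bj (H2B): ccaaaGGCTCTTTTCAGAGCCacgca
Hist1h3c (H3): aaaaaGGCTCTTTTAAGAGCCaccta
Hist2h2ac (H2A): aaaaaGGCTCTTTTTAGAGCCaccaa
Hist1h4d (H4): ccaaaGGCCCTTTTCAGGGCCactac
Hist2h4 (H4): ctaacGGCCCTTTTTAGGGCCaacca
Hist1h4b (H4): caaaaGGTCCTTTTCAGGACCactca
The form in Hist1h1c and Hist1h2bj was shared by 21 members, namely 3 of H1, 6 of H2A, 8 of H2B and 4 of H3. The form in Hist1h3c was found in 6 members, 1 of H1, 2 of H2B and 3 of H3. All 9 H4 members with a match carried one of the 3 forms listed for H4, which no other type had: 5 carried that of Hist1h4d, 2 that of Hist2h4 and 2 that of Hist1h4b.

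The annotated transcript ended within 100 bases of the stem-loop in 16 members and ran on past it in 21. Another 10 members had no match in their transcript, Hist2h2be and Hist1h2bc among them, and for 9 the model held the coding part alone, so that no end could be searched. A match is a description of the annotated model and not of the RNA ends in these libraries.

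Promoters from RefSeq (GRCm38.p6, 250 bases before to 50 after the gene start) were matched for 49 members and searched on both strands for 4 short motifs. The CCAAT box (CCAAT) was found in 42 of 49 members (85.7%), against 37.4% of 32851 promoters in the table. It was present in all 6 promoters of H1, all 12 of H2A, all 13 of H2B and all 8 of H3 genes, and in 3 of 10 of H4 genes. The TATA box (TATAAA) was found in 61.2% of member promoters and 13.6% of all. The octamer core (TTTGCAT) was found in 22.4% and 4.6%, with 5 of its 11 member promoters in H2A, 5 in H2B and 1 in H4 genes. Some H2A and H2B genes start close together on opposite strands, such as Hist1h2ae (chr13:23571220, minus strand) and Hist1h2bg (chr13:23571396, plus strand). Their promoter windows can overlap, so 1 site may be counted for both genes. The H1 box (AAACACA), known from linker histone promoters, was found in 16.3% of member promoters and 7.2% of all, and in 5 of 6 of H1.

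The 3 promoters below are shown because they belong to members whose RNA rose with TPA and hold different sets of these motifs, which are in capitals on either strand. They are written in the sense direction of the gene, from chr13:21780576-21780875 on the minus strand for Hist1h1b, chr13:22042948-22043247 on the plus strand for Hist1h2bj and chr13:21750504-21750803 on the minus strand for Hist1h4k.
Hist1h1b (H1; CCAAT, TATA and H1 boxes): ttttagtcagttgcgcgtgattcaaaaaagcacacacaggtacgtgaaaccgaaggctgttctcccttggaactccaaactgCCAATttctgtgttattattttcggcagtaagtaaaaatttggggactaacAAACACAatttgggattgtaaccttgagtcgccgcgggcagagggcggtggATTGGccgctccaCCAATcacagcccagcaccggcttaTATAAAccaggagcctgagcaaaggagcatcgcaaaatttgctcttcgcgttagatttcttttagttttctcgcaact
Hist1h2bj (H2B; CCAAT boxes): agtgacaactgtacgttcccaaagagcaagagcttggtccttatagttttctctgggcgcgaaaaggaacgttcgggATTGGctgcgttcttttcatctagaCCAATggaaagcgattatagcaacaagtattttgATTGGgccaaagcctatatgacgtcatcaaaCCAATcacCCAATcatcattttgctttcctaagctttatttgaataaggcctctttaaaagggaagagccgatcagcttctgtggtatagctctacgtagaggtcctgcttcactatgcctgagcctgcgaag
Hist1h4k (H4; TATA box): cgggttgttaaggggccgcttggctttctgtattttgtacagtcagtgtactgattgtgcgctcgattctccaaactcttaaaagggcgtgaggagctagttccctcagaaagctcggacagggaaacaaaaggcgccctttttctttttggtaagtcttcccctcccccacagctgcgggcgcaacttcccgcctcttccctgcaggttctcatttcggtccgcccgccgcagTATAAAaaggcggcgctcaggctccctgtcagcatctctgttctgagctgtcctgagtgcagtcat

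Levels are given as CPM, counts scaled to library size after TMM normalisation, which lines libraries up on the bulk of their genes. Library totals ranged from 16874233 to 22560098 counts, so a floor of 3 counts amounted to between 0.133 and 0.178 CPM, for counting error only. Gm26917, a noncoding transcript, made up 16.771% to 24.209% of counts in the treated and 8.341% to 13.826% in the vehicle libraries. Rn7sk, a nuclear RNA that has no poly(A) tail, lay between 2882 and 7194 CPM, so RNA without a tail was present in all 8 libraries. Among the vehicle libraries, WT vehicle 1 stood apart for the histone genes, with the lowest value of the 4 for 31 of the 50 members tested. Comparisons with vehicle skin are given without it as well.

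Together the 56 members reached 1260.2 CPM in KO and 1480.0 CPM in WT skin with FA+TPA, 1131 CPM in KO and 1218 CPM in WT skin with TPA, 772 and 707 CPM in KO vehicle skin, and 637 and 768 CPM in WT vehicle skin. All 4 treated libraries lay above all 4 vehicle libraries. On the log2 scale the mean with TPA lay 0.70 above that with vehicle, where the vehicle libraries had an SD of 0.13. The mean with FA+TPA lay 0.93 above that with vehicle and 0.22 above that with TPA. Without WT vehicle 1 the differences from vehicle were 0.65 with TPA and 0.87 with FA+TPA. Taken as a share of raw counts, without TMM scaling, the sum lay 0.47 above vehicle with TPA and 0.71 with FA+TPA, so the size of the rise depended on the scaling and its direction did not.

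**Figure D1:**
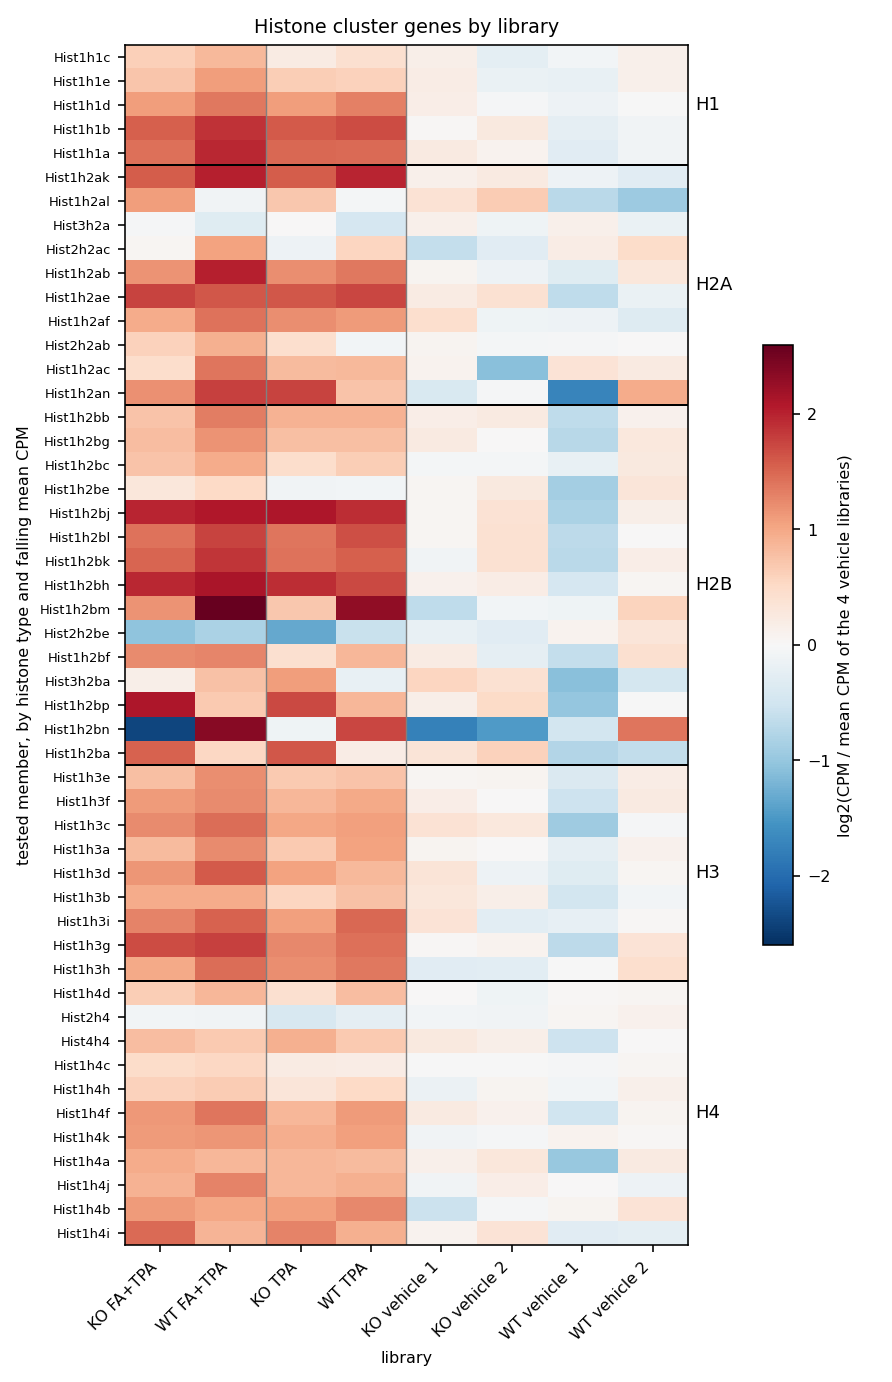
Level of each of the 50 tested members (rows, by histone type) in each of the 8 libraries (columns), as log2 of its CPM over the mean CPM of the 4 vehicle libraries. Most rows are red in all 4 treated libraries, while Hist2h2be is blue there and WT vehicle 1 is the bluest of the vehicle columns in many rows.

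The histone RNA was spread unevenly over the members. Per kilobase of annotated exon, Hist1h1c (ENSMUSG00000036181, chr13:23738808-23740367, plus strand) ranked first of 56, at 168 CPM per kb with FA+TPA, 125 with TPA and 100.4 with vehicle, as group means over both genotypes. Hist1h1b, Hist1h4h, Hist1h1e and Hist1h4d followed over all libraries. With TPA, Hist1h1b, at 109.9 CPM per kb, stood above Hist1h4h, at 73.2 CPM per kb. In vehicle skin the order was the other way, with 35.3 CPM per kb for Hist1h1b and 54.7 CPM per kb for Hist1h4h. Levels per kilobase depend on the annotated length, and Hist1h1d, with a model of 7425 bases, ranked 31st although its CPM was the third highest among H1 genes.

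By type, H1 genes gave between 41.2% and 48.6% of the summed CPM in every library. H4 genes gave 29.5% in KO and 26.0% in WT skin with FA+TPA, 29.2% in KO and in WT skin with TPA, and between 32.0% and 36.2% in the 4 vehicle libraries. The H4 share was thus lower in each treated library than in any vehicle library. The shares of H2B, from 7.42% to 11.6%, and of H3, from 7.20% to 10.5%, were lowest in WT vehicle 1, and H2A genes gave between 2.63% and 3.86%.

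**Figure D2:**
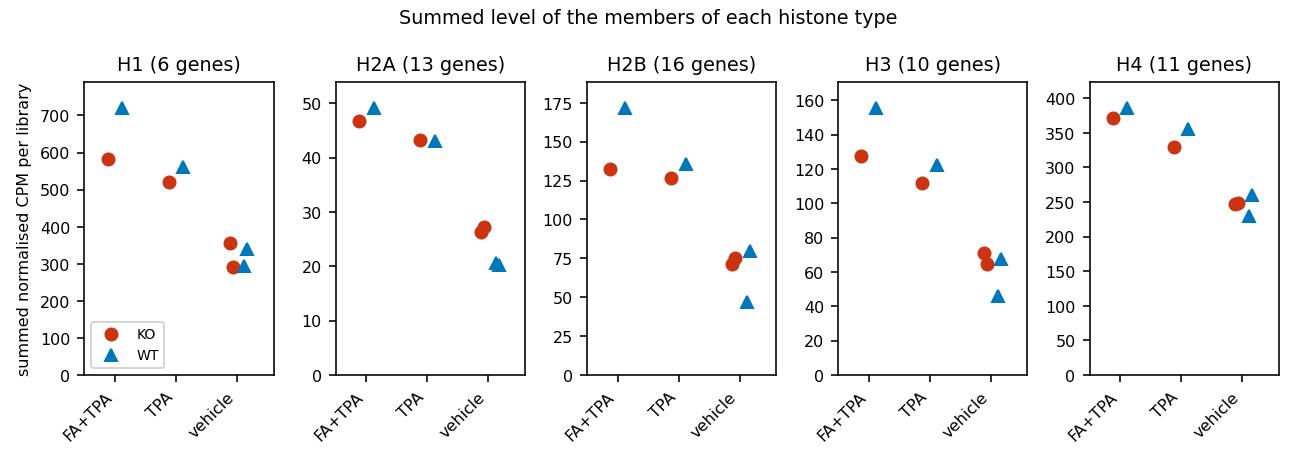
Summed CPM of the members of each histone type, 1 panel a type, by treatment, with 1 point a library (circles KO, triangles WT). In each of the 5 panels the treated libraries lie above the vehicle libraries, and H4 shows the smallest ratio of treated to vehicle.

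Histone cluster genes were broadly higher after TPA than after vehicle. Of the 50 members tested, 37 rose and 2 fell, where 23.2% of all 19251 genes tested rose and 22.8% fell (edgeR quasi-likelihood test over both genotypes, adjusted p under 0.05). The median log2 fold change of the 50 was 0.93, from -0.93 to 2.01, against -0.03 over all genes. The values of the 2 TPA libraries lay above those of all 4 vehicle libraries for 38 members and below them for 2, against 28% and 29% of all genes. Without WT vehicle 1, 36 of the 51 members then tested rose and 2 fell, with a median of 0.82. Of the 50, 48 would also have been tested on the vehicle libraries alone, and the 37 rises and 2 falls were all among them. The other 6 members, Hist3h2bb-ps, Hist1h2ai, Hist1h2ag, Hist1h2ad, Hist1h1t and Hist2h3c2, were too low to be tested. In bulk samples, more cells that express a histone gene and more RNA in each such cell cannot be told apart.

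Most of the tested members, 43 of 50, belong to Hist1, and so did most of the rises. In Hist1, 36 of 43 members rose and none fell with this test, with a median log2 fold change of 1.04. In Hist2, 2 of 4 fell and none rose, with a median of -0.05. The 2 tested members of Hist3, Hist3h2a at -0.20 ± 0.19 (adjusted p = 0.427) and Hist3h2ba at 0.58 ± 0.39 (adjusted p = 0.25), did not pass the test. Hist4h4 (ENSMUSG00000096010, chr6:136801553-136804415, minus strand), the lone H4 gene outside the clusters, rose by 0.81 ± 0.13 (adjusted p = 0.00059) on the log2 scale, with 58 (KO) and 53.2 (WT) CPM with FA+TPA, 63.2 (KO) and 53.4 (WT) CPM with TPA, 39.9 and 37 CPM in KO vehicle and 23 and 33.4 CPM in WT vehicle skin. Its treated and vehicle values did not overlap, and without WT vehicle 1, its lowest library, the rise was 0.69 (adjusted p = 8.82e-05). Differences between the clusters were not tested.

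All 5 tested linker genes rose with TPA. Hist1h1b (ENSMUSG00000058773, chr13:21779883-21780625, minus strand) changed the most among them, with 77.4 (KO) and 96.2 (WT) CPM with FA+TPA, 78.8 (KO) and 84.5 (WT) CPM with TPA, 26.8 and 31.2 CPM in KO vehicle and 22.3 and 24.6 CPM in WT vehicle skin. All treated values lay well above all vehicle values. The fitted rise was 3.11-fold, 1.64 ± 0.13 (adjusted p = 4.23e-06) on the log2 scale. Hist1h1a rose by 1.48 ± 0.16 (adjusted p = 3.65e-05), and Hist1h1d by 1.20 ± 0.11 (adjusted p = 1.07e-05). The more abundant Hist1h1e rose less, by 0.63 ± 0.13 (adjusted p = 0.00291).

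Hist1h1c, the most abundant member, changed the least of the linker genes. Its levels were 241 (KO) and 282 (WT) CPM with FA+TPA, 182 (KO) and 208 (WT) CPM with TPA, 173 and 132 CPM in KO vehicle and 150.0 and 172 CPM in WT vehicle skin. The 2 TPA values were above the 4 vehicle values, the nearest of them, KO vehicle 1, by less than the spread between the vehicle libraries. The fitted change was 0.31 ± 0.11 (adjusted p = 0.0429), close to the threshold. Under scaling by library size alone it was 0.08 with an adjusted p of 0.617, and the call was also lost with 1 mean per group and without each of KO vehicle 2, WT vehicle 1, KO TPA and WT TPA. Among the 5 H1 genes tested, the rise with TPA was thus larger in Hist1h1a and Hist1h1b than in Hist1h1c and Hist1h1e. The first pair had lower vehicle CPM, but vehicle CPM is also the base of the change, so this is a description only. Hist1h1t, the testis linker gene, held 24 counts in all libraries together.

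H2A genes had the lowest summed CPM of any type, and 4 of the 10 tested rose. Exons of 12 H2A members overlap a miRNA model on the opposite strand. Whether this overlap, or sequence shared between copies, lowered the H2A counts was not tested. Hist1h2ak (ENSMUSG00000063021, chr13:21753435-21753827, minus strand) had the highest CPM of the protein-coding H2A genes with treatment, at 13.3 (KO) and 18.1 (WT) CPM with FA+TPA, 13.2 (KO) and 17.4 (WT) CPM with TPA, 4.88 and 5.22 CPM in KO vehicle and 4.07 and 3.62 CPM in WT vehicle skin. Its lowest treated value was over 2 times its highest vehicle value, and it rose 3.4-fold, 1.77 ± 0.19 (adjusted p = 3.45e-05). Hist1h2ae rose by 1.67 ± 0.25 (adjusted p = 0.000299), Hist1h2ab by 1.28 ± 0.26 (adjusted p = 0.00217) and Hist1h2af by 1.15 ± 0.27 (adjusted p = 0.00554). Only 20.3% of the 50-base windows of Hist1h2af were absent from other genes, so its value is uncertain. The remaining 6 did not pass the test. Of these, Hist1h2an, at 1.35 ± 0.62 (adjusted p = 0.0984), ranged from 0.0565 to 0.362 CPM in vehicle skin, near the floor. Hist2h2ac measured 0.27 ± 0.22 (adjusted p = 0.346) and Hist2h2ab 0.22 ± 0.29 (adjusted p = 0.562). Hist3h2a, whose annotated exons overlap those of Trim17, stood at 4.53 (KO) and 3.69 (WT) CPM with FA+TPA, 4.62 (KO) and 3.39 (WT) CPM with TPA, 5.02 and 4.27 CPM in KO vehicle and 5.03 and 4.09 CPM in WT vehicle skin, with TPA values within the vehicle range in KO skin and below it in WT skin.

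H2B genes showed the widest spread of any type, with 10 of 15 higher and 1 lower. The top change of all members was that of Hist1h2bj (ENSMUSG00000069300, chr13:22043214-22043676, plus strand), with 14.3 (KO) and 15.3 (WT) CPM with FA+TPA, 15.6 (KO) and 13.6 (WT) CPM with TPA, 3.75 and 4.68 CPM in KO vehicle and 2.03 and 4.03 CPM in WT vehicle skin. Each treated value was over 2 times each vehicle value. The fitted rise was 4.01-fold, 2.01 ± 0.22 (adjusted p = 3.43e-05). Next came Hist1h2bh, at 10.9 (KO) and 12.3 (WT) CPM with FA+TPA, 10.6 (KO) and 9.31 (WT) CPM with TPA, 3.05 and 3.22 CPM in KO vehicle and 2.09 and 2.9 CPM in WT vehicle skin, with a rise of 1.82 ± 0.17 (adjusted p = 1.42e-05). Hist1h2bm rose by 1.58 ± 0.28 (adjusted p = 0.001), Hist1h2bl by 1.53 ± 0.23 (adjusted p = 0.000367) and Hist1h2bk by 1.47 ± 0.24 (adjusted p = 0.000489). Of the windows of Hist1h2bl 17.2% were its own, and its value is likewise uncertain.

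These 5 were named for having the largest H2B changes, so all other H2B genes changed less by that choice. Among the others were the 4 H2B genes with the highest CPM in vehicle skin. Hist1h2bb, at 21.1 (KO) and 31.7 (WT) CPM with FA+TPA, 23.7 (KO) and 23.7 (WT) CPM with TPA, 14.1 and 14.8 CPM in KO vehicle and 7.91 and 13.5 CPM in WT vehicle skin, rose by 0.91 ± 0.22 (adjusted p = 0.00704), and without WT vehicle 1, its lowest library, it rose by 0.72 (adjusted p = 0.00353). Hist1h2bg rose by 0.77 ± 0.23 (adjusted p = 0.0167) and Hist1h2bc by 0.55 ± 0.13 (adjusted p = 0.00629), both calls lost under scaling by library size alone and without WT TPA, and the first also without KO TPA. Hist1h2be, whose exons share 496 bases with Hist1h1e on the same strand, measured -0.09 ± 0.27 (adjusted p = 0.819), and to which of the 2 such reads were assigned is not stated. Hist1h2ba, the testis H2B gene, lay between 0.283 and 1.48 CPM in the 8 libraries. It measured 1.06 ± 0.33 (adjusted p = 0.0226), a call not made by DESeq2 (adjusted p = 0.168).

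Hist2h2be (ENSMUSG00000068854, chr3:96221119-96223738, plus strand) went the other way. The human counterpart of this H2B gene is known for a polyadenylated transcript in cells that have stopped dividing. Its levels were 1.87 (KO) and 2.16 (WT) CPM with FA+TPA, 1.53 (KO) and 2.59 (WT) CPM with TPA, 3.38 and 3.13 CPM in KO vehicle and 4.13 and 4.76 CPM in WT vehicle skin. All 4 treated values lay below all 4 vehicle values, and the fitted change with TPA was -0.93 ± 0.21 (adjusted p = 0.00462). Its annotated transcript, of 2620 bases, held no stem-loop match, and all of its 50-base windows were absent from other genes' transcripts. Without KO TPA the change was -0.71 and the call was lost, with an adjusted p of 0.0864.

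All 9 tested H3 genes rose, within a narrow band from 0.67 to 1.33. Hist1h3e (ENSMUSG00000069273, chr13:23561534-23562369, minus strand), the H3 member with the highest CPM, stood at 27.4 (KO) and 36.4 (WT) CPM with FA+TPA, 25.4 (KO) and 26.6 (WT) CPM with TPA, 16.5 and 16.6 CPM in KO vehicle and 12.3 and 18 CPM in WT vehicle skin. Treated and vehicle values did not overlap, and the change was 0.71 ± 0.16 (adjusted p = 0.00386). Hist1h3f rose by 0.92 ± 0.18 (adjusted p = 0.00182), Hist1h3c by 1.04 ± 0.24 (adjusted p = 0.00512) and Hist1h3a by 0.86 ± 0.15 (adjusted p = 0.00102). The highest value was that of Hist1h3g, 1.33 ± 0.23 (adjusted p = 0.000803). Without WT TPA the call for Hist1h3c was lost, at 0.83 with an adjusted p of 0.0657.

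Of the 11 H4 genes, 9 rose and 1 fell. Hist1h4d (ENSMUSG00000061482, chr13:23581598-23582735, plus strand), the H4 member with the highest CPM with treatment, stood at 74.2 (KO) and 87 (WT) CPM with FA+TPA, 63.7 (KO) and 82.9 (WT) CPM with TPA, 48 and 44.5 CPM in KO vehicle and 49.1 and 49.9 CPM in WT vehicle skin. The vehicle libraries agreed closely for this gene, and the rise, 0.60 ± 0.09 (adjusted p = 0.000263), was 1.52-fold. Hist1h4k rose by 1.01 ± 0.11 (adjusted p = 4.15e-05), Hist1h4b by 1.17 ± 0.18 (adjusted p = 0.00041) and Hist1h4i by 1.12 ± 0.15 (adjusted p = 0.00012). Hist1h4c measured 0.21 ± 0.09 (adjusted p = 0.0681) and did not pass.

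Hist2h4 (ENSMUSG00000091405, chr3:96261682-96263311, minus strand) was the H4 gene that fell. Its levels were 61.8 (KO) and 60.3 (WT) CPM with FA+TPA, 48.1 (KO) and 55 (WT) CPM with TPA, 61 and 60.2 CPM in KO vehicle and 66.6 and 70 CPM in WT vehicle skin. Both TPA values lay below all 4 vehicle values, while both FA+TPA values lay within the vehicle range. The change with TPA was -0.32 ± 0.09 (adjusted p = 0.0103), and 99.0% of its 50-base windows were absent from other genes. The call was lost without KO TPA, at -0.24 with an adjusted p of 0.177, and without WT TPA, at -0.37 with an adjusted p of 0.0559.

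**Figure D3:**
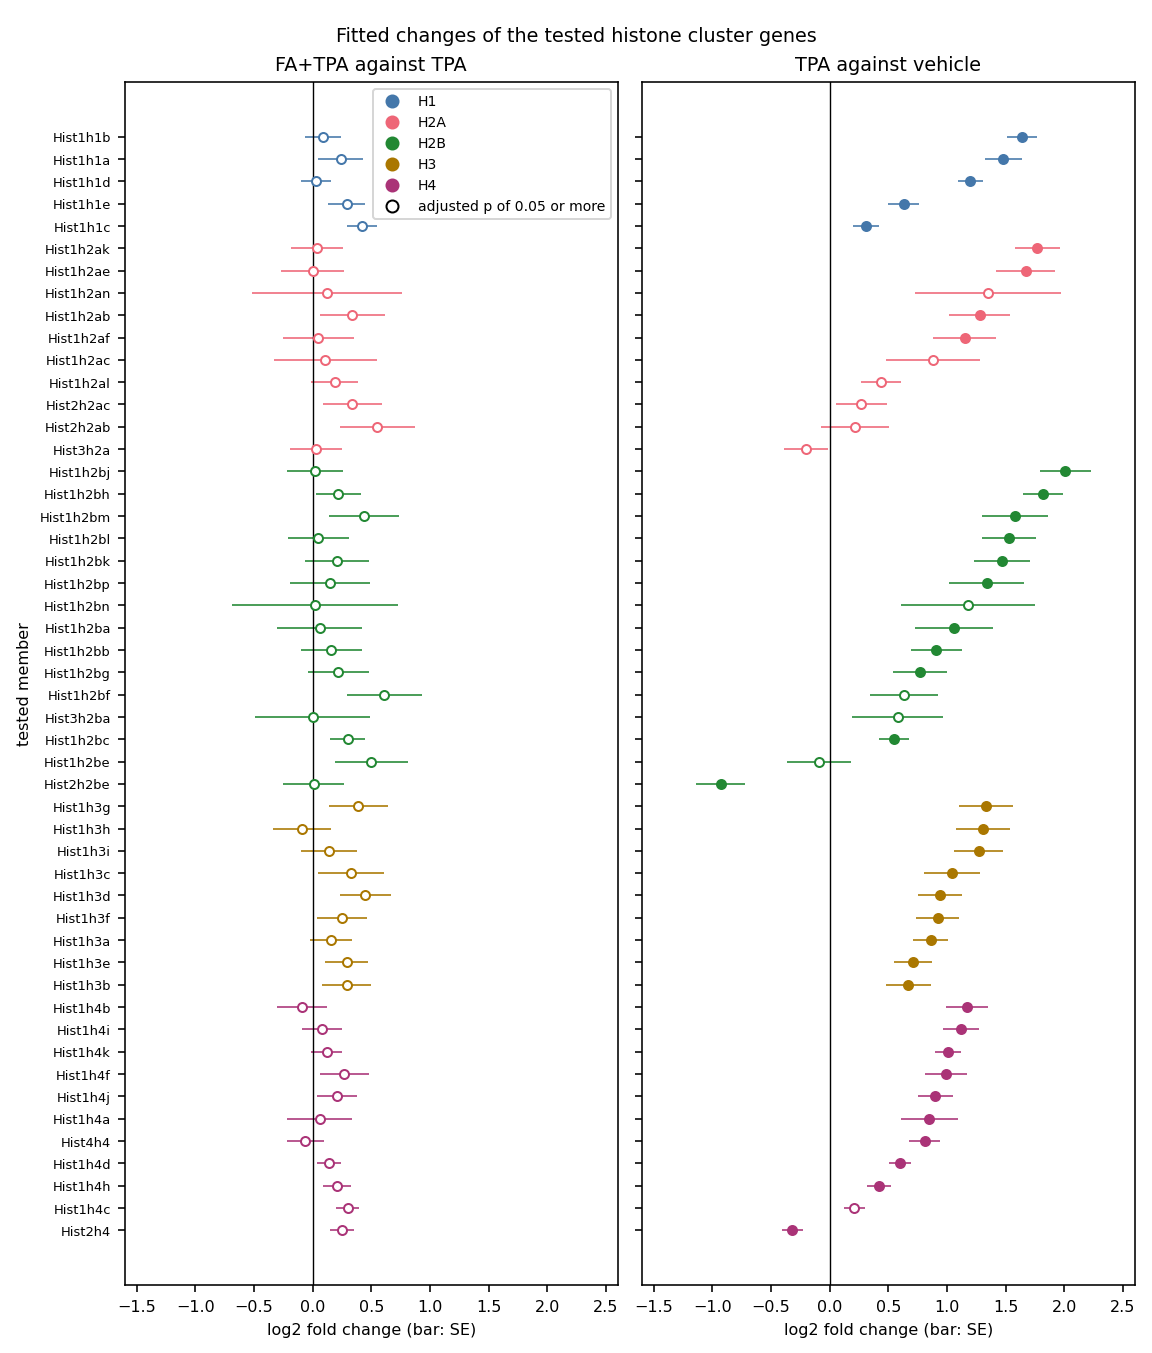
Fitted log2 fold change of each of the 50 tested members, with its SE as a bar, for FA+TPA against TPA (left) and TPA against vehicle (right). Filled points passed the test: 37 rises and 2 falls with TPA, and none for FA+TPA against TPA.

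The response to TPA was also set out by the kind of transcript end. Members with the stem-loop near the end of the annotated transcript had a median log2 fold change with TPA of 1.02 over 14 genes, of which 12 rose. Those with at least 1 transcript that ran on further past it had 0.77 over 19 genes, of which 13 rose and 1 fell. Members annotated with the coding part alone had 1.29 over 8 genes and those without a match 0.85 over 9. The ranges of the 4 classes overlapped, and differences between them were not tested. Hist1h1b and Hist1h1a, the H1 genes with the largest rises, had no match in their models of 743 and 741 bases. They rose by 1.64 and 1.48, above the median of each class.

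**Figure D4:**
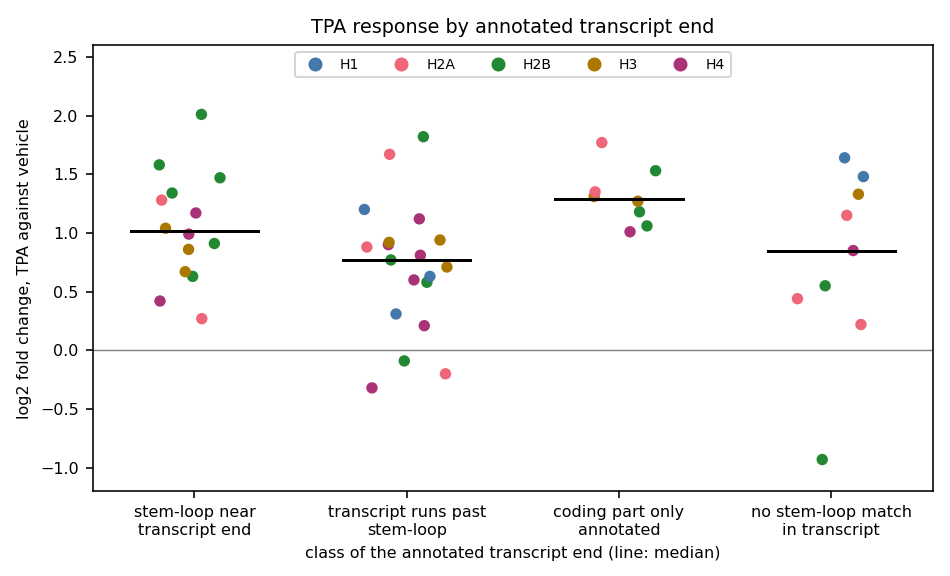
Log2 fold change with TPA against vehicle of each tested member, by the class of its annotated transcript end and coloured by histone type, with the class median as a line. The medians are 1.02, 0.77, 1.29 and 0.85 from left to right, and the points of the classes overlap.

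Neighbours in the pathway moved in part with the members. Of all genes tested, 23.2% rose and 22.8% fell with TPA, the background for the list counts with TPA that follow. Slbp, the protein that binds the stem-loop, had 22.2 (KO) and 22.9 (WT) CPM with FA+TPA, 27.6 (KO) and 25.7 (WT) CPM with TPA, 19 and 21.2 CPM in KO vehicle and 19.2 and 18.6 CPM in WT vehicle skin, a rise with TPA of 0.45 ± 0.10 (adjusted p = 0.00402). In a list of 30 genes for histone mRNA processing and transcription, 11 rose and 2 fell with TPA, with a median of 0.29. Of 25 histone chaperones, 15 rose and 1 fell, with a median of 0.43, among them Asf1b, which passes new H3 and H4 on at replication forks, at 1.77 ± 0.17 (adjusted p = 1.65e-05). Of 46 genes listed for DNA replication and the entry into S phase, 26 rose and 1 fell, with a median of 0.43. Rrm2, a subunit of ribonucleotide reductase, changed by 1.46 ± 0.10 (adjusted p = 1.53e-06). The 26 include Slc25a10, a mitochondrial carrier gene that was on the list, at 1.63 ± 0.20. All 20 mitosis genes rose, with a median of 2.21, and Mki67, the Ki-67 proliferation marker, changed by 1.80 ± 0.16 (adjusted p = 9.6e-06). The median over the 50 histone members, 0.93, lay between those of the replication and mitosis lists.

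The listed histone genes outside the clusters were a mixed group. Most, but not all, such genes give polyadenylated mRNA and are not tied to the cell cycle. Of 13 tested, 4 rose and 2 fell with TPA, with a median of 0.19. H2afx, the H2A variant phosphorylated at DNA breaks, rose by 2.30 ± 0.15 (adjusted p = 1.42e-06), and Cenpa, the centromeric H3, by 2.50 ± 0.19 (adjusted p = 3.07e-06). H2afz, the variant placed at promoters, rose by 0.91 ± 0.18 (adjusted p = 0.00209). H3f3b, which encodes the replacement histone H3.3, had 217 (KO) and 217 (WT) CPM with FA+TPA, 209.6 (KO) and 209.9 (WT) CPM with TPA, 182 and 147 CPM in KO vehicle and 148 and 189.7 CPM in WT vehicle skin, a change of 0.33 ± 0.11 (adjusted p = 0.0356). H3f3a, the other gene for H3.3, was lower, at -0.36 ± 0.13 (adjusted p = 0.0384). Of 12 other RNAs listed as lacking a poly(A) tail, 1 rose and 3 fell, and the median was -0.01. Rn7sk was among those that fell, by -1.03 ± 0.14 (adjusted p = 0.00018), against the direction of the histone members. Gm26917 was the one that rose, by 1.21 ± 0.22 (adjusted p = 0.00114), and with it removed 37 members passed as higher with TPA. The part of Gm26917, or of the recovery of RNA without a tail, in the histone result was not tested.

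Markers of other cells also moved with TPA, where 23.2% of all genes rose and 22.8% fell. The part of these cells in the histone result was not tested. Neutrophil markers summed to 397 CPM in KO and 931 CPM in WT skin with TPA, against between 4.47 and 15.3 CPM in vehicle skin, and 4 of 5 tested rose, with Elane at 0 in all libraries. Macrophage and monocyte markers summed to 328 CPM in KO and 129.7 CPM in WT skin with TPA, against between 114 and 129 CPM with vehicle, with 7 of 10 higher and 1 lower. T cell markers summed to 29.1 and 26.6 CPM with TPA in KO and WT skin, against between 54.1 and 80.0 CPM with vehicle, with 6 of 11 lower and none higher. Langerhans cell markers had 5 of 7 lower and 1 higher, and fibroblast markers 3 of 7 lower and 2 higher.

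The remaining lists were smaller or mixed. Keratinocyte markers, which mark the labelled tissue, summed to between 20809 and 38509.8 CPM over the 8 libraries, with 3 of 11 higher and 4 lower with TPA. Krt14 of the basal layer changed by 1.58 ± 0.09 (adjusted p = 5.93e-07) and Krt10 of the suprabasal layers by -1.84 ± 0.14 (adjusted p = 3.11e-06). Hair follicle matrix markers summed to between 101 and 118 CPM with TPA and between 13.3 and 18.9 CPM with vehicle, mostly through Krt75, with Shh at 0 in all libraries. Of the 4 tested, Krt75 rose, by 3.30 ± 0.19 (adjusted p = 5.76e-07), and Msx2 fell, by -0.79 ± 0.26 (adjusted p = 0.0263), and the median of the list was -0.02. Of 4 tested erythroid and haematopoietic precursor markers 1 fell. None of 7 skeletal muscle markers passed, while their sum ranged from 6.41 to 194 CPM among the vehicle libraries.

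FA given before TPA did not move any member past the test. Of the 50 tested, 0 were called higher and 0 lower than with TPA alone by edgeR, where 5.71% of all genes were higher and 4.31% lower, and limma-voom and DESeq2 called 0 as well. At an unadjusted p under 0.05 there were 3, against 23.5% of all genes: Hist1h1c at 0.42 ± 0.13 (adjusted p = 0.0739), Hist1h4c at 0.30 ± 0.10 (adjusted p = 0.0914) and Hist2h4 at 0.25 ± 0.10 (adjusted p = 0.151). The fitted values nevertheless leaned one way: 46 of 50 were above 0, against 50.7% of all genes, with a median of 0.18 against 0.01. Both FA+TPA values lay above both TPA values for 19 members and below them for 0, against 27.4% and 25.4% of all genes.

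The lean was carried more by the WT library. In KO skin the median log2 ratio of FA+TPA to TPA was 0.11, with 35 members above 0 and 14 below, and in WT skin it was 0.30, with 43 above and 7 below, each from 1 library against 1. Without the KO FA+TPA library the median of the fitted values was 0.33, and without the WT FA+TPA library it was 0.00. In the same comparison the mitosis list had a median of -0.28 and the DNA replication list one of -0.19, with 0 higher in either and 0 and 2 lower. The replication-independent histones had a median of 0.16, with 0 called, the chaperones -0.13, with 0 called, and the processing list -0.09, with 0 higher and 2 lower. The 2 of the processing list were Zc3h12a, an RNase that curbs inflammatory mRNAs, at -0.84 ± 0.21 (adjusted p = 0.0278), and Nfyb, at -0.58 ± 0.12 (adjusted p = 0.0106).

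Beside these values other markers moved too, and their part was not tested. Of 11 keratinocyte markers, 4 were higher with FA+TPA than with TPA and 1 lower, where 5.71% of all genes were higher and 4.31% lower. Krt10 was higher, by 1.89 ± 0.15 (adjusted p = 7.31e-05), while Krt14 measured -0.34 ± 0.11 (adjusted p = 0.0854). Rn7sk was higher by 0.64 ± 0.16 (adjusted p = 0.0267). Of the 12 other RNAs without a tail, 1 was higher and 0 lower, with a median of 0.30. The neutrophil sum was 199 CPM in KO and 109 CPM in WT skin with FA+TPA, with 3 of 5 lower than with TPA. Of 10 macrophage and monocyte markers, 2 were higher and 3 lower.

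FA+TPA against vehicle shares its vehicle libraries with the TPA comparison and so is not independent of it. In it 40 members were higher and 1 lower, where 17.4% of all genes were higher and 14.2% lower, with a median of 1.12. Without the WT FA+TPA library 29 were higher and 0 lower, and without WT vehicle 1 40 were higher and 1 lower. For Hist1h1c the change from vehicle was 0.74 ± 0.11 (adjusted p = 0.000669) with FA+TPA and 0.31 with TPA. For Hist1h2bh it was 2.04 ± 0.17 (adjusted p = 1.65e-05) with FA+TPA and 1.82 with TPA, and for Hist1h2bm 2.01 ± 0.28 (adjusted p = 0.000367) and 1.58. Hist1h2bj, Hist1h2ak and Hist1h1b, the other large rises, measured 2.03, 1.80 and 1.73 with FA+TPA. Hist2h2be was again lower, at -0.92 ± 0.22 (adjusted p = 0.00875), and Hist2h4, at -0.07 ± 0.08 (adjusted p = 0.547), did not pass.

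Averaged over all treatments, the summed histone level differed between KO and WT skin by less than the spread between vehicle libraries. The KO mean differed from the WT mean by -0.08 on the log2 scale, where the vehicle libraries of both genotypes had an SD of 0.13. Within treatments the sum was 1260.2 (KO) and 1480.0 (WT) CPM with FA+TPA and 1131 (KO) and 1218 (WT) CPM with TPA. In vehicle skin the KO and WT sums overlapped. Over all treatments, single members differed in both directions by edgeR. Of these, 2 were higher and 3 lower in KO, where 1.98% of all genes were higher and 1.6% lower. An unadjusted p under 0.05 was found for 11 of 50, against 16% of all genes. The median of the 50 was 0.01, with 25 above 0 and 25 below, and ran from -0.14 without WT vehicle 1 to 0.12 without either FA+TPA library. Within treatments the median log2 ratio of KO to WT was -0.24 with FA+TPA, with 40 members below 0 and 10 above, -0.11 with TPA, with 31 below and 17 above, and 0.16 with vehicle, with 16 below and 34 above. The first 2 of these ratios rest on 1 library a genotype. All 4 KO values lay above all 4 WT values for 1 member and below them for 1, against 1.99% and 1.71% of all genes. In the same comparison 2 of 11 T cell markers were higher in KO, Cd8a and Cd4, and 2 lower, Trdc, the constant part of the delta T cell receptor, by -0.86 ± 0.17 (adjusted p = 0.0243), and Cd3e, by -0.62 ± 0.12 (adjusted p = 0.0214). Of 10 macrophage and monocyte markers 1 was higher and of 11 keratinocyte markers 1 was lower, and the part of these cells in the histone values was not tested.

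Of the members higher in KO, Hist1h2al (ENSMUSG00000091383, chr13:51202727-51203065, minus strand), a processed pseudogene of H2A far from the rest of the cluster, stood at 14.3 (KO) and 6.3 (WT) CPM with FA+TPA, 10.8 (KO) and 6.47 (WT) CPM with TPA, 8.67 and 10.5 CPM in KO vehicle and 4.13 and 3.47 CPM in WT vehicle skin. Each KO value was above every WT value, and the difference was 1.14 ± 0.15 (adjusted p = 0.00246). In vehicle skin alone the gene averaged 9.6 ± 1.31 CPM in KO and 3.8 ± 0.467 CPM in WT (SD, n = 2 each), a difference of 1.34 ± 0.21 (adjusted p = 0.0108) by edgeR. Of its 50-base windows 32.4%, and of its 100-base windows 80.8%, were absent from other genes' transcripts. Hist1h2ba differed by 1.18 ± 0.28 (adjusted p = 0.0496) at levels of at most 1.48 CPM, and the call was lost under RLE scaling, limma-voom, DESeq2, removal of Gm26917, 1 mean per group and each library left out.

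The 3 members lower in KO were Hist1h2bn, Hist1h2bm and Hist2h2ac. Hist1h2bn (ENSMUSG00000095217, chr13:21754123-21754503, plus strand) stood at 0.121 (KO) and 3.24 (WT) CPM with FA+TPA, 0.584 (KO) and 2.1 (WT) CPM with TPA, 0.188 and 0.227 CPM in KO vehicle and 0.452 and 1.66 CPM in WT vehicle skin, with KO values near the floor. All KO values but that with TPA lay below all WT values, and the difference was -2.61 ± 0.50 (adjusted p = 0.0184). Only 13.6% of its 50-base windows were absent from other genes. Hist1h2bm (ENSMUSG00000114279, chr13:21722044-21722567, plus strand) stood at 3.99 (KO) and 11.6 (WT) CPM with FA+TPA, 2.87 (KO) and 8.75 (WT) CPM with TPA, 1.13 and 1.68 CPM in KO vehicle and 1.64 and 2.64 CPM in WT vehicle skin. The KO values were well below the WT values in both treated pairs and overlapped them in vehicle skin, and the difference was -1.19 ± 0.24 (adjusted p = 0.0237). Hist2h2ac (ENSMUSG00000068855, chr3:96220361-96220880, minus strand) stood at 2.23 (KO) and 4.45 (WT) CPM with FA+TPA, 1.98 (KO) and 3.21 (WT) CPM with TPA, 1.41 and 1.77 CPM in KO vehicle and 2.49 and 3 CPM in WT vehicle skin. Every KO value of that gene was below every WT value, and the difference was -0.82 ± 0.18 (adjusted p = 0.0337).

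These 3 calls depended on single libraries. Without KO FA+TPA, and likewise without WT FA+TPA, none of Hist1h2bn, Hist1h2bm and Hist2h2ac passed, with adjusted p from 0.0804 to 0.151. The call for Hist1h2bm was also lost without KO vehicle 1, WT vehicle 2 and either TPA library, and that for Hist2h2ac without any 1 library but WT vehicle 1, with 1 mean per group and by DESeq2 (adjusted p = 0.0719). The H2B sum differed between KO and WT by -0.10 on the log2 scale and the H2A sum by 0.11. Over the vehicle libraries of both genotypes the SD was 0.34 for H2B and 0.23 for H2A, which includes any difference between KO and WT vehicle skin. The H2A sum was 26.3 and 27.3 CPM in KO and 20.6 and 20.2 CPM in WT vehicle skin, without overlap. The H2B sum was 71.5 and 75.4 CPM in KO and 47.3 and 80.0 CPM in WT vehicle skin. These differences were not tested.

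**Figure D5:**
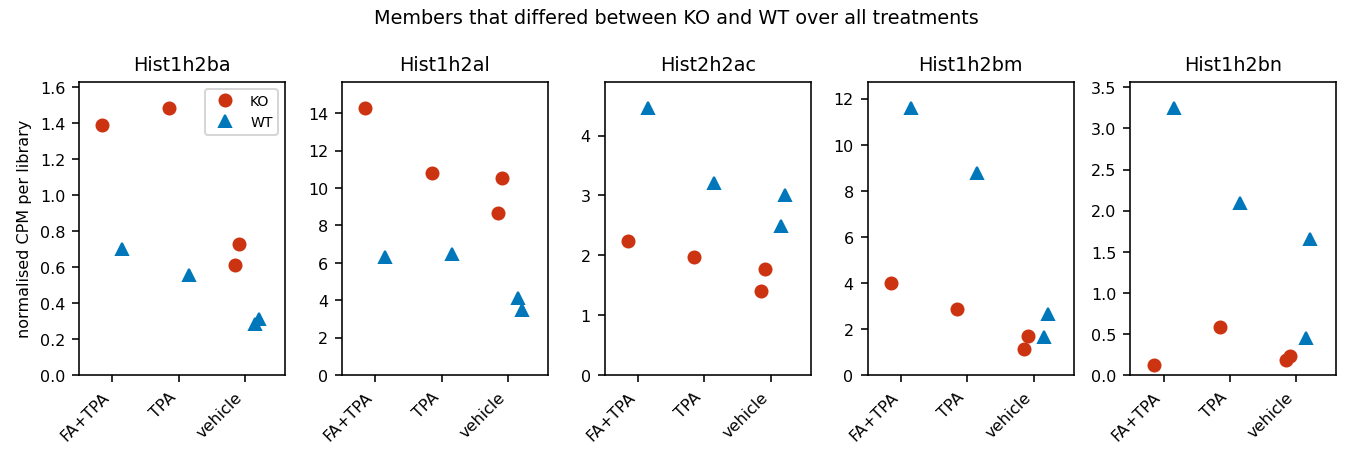
CPM in each library of the 5 members that differed between KO and WT over all treatments, 1 panel a gene, with KO as circles and WT as triangles. Hist1h2ba and Hist1h2al are higher in KO, and Hist2h2ac, Hist1h2bm and Hist1h2bn are lower in KO, with Hist1h2bn near the floor of 3 counts in most KO libraries.

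In vehicle skin alone 1 member was higher in KO and 0 were lower, where 1.44% of all genes were higher and 0.727% lower, and 11 of 50 had an unadjusted p under 0.05, against 11.5% of all genes. limma-voom and DESeq2 also called 0 lower. Both KO values lay above both WT values for 17 members and below them for 9, against 19.7% and 20.1% of all genes. The median difference was 0.15, with 34 of 50 above 0, and it followed the WT vehicle libraries. It was -0.02 without WT vehicle 1 and 0.38 without WT vehicle 2, each with 1 WT vehicle library left. Skeletal muscle markers were higher in KO vehicle skin, with 5 of 7 called and sums of 194 and 75.7 CPM in KO against 23.6 and 6.41 CPM in WT, and 3 of 20 mitosis genes were called higher. Their part was not tested.

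Whether KO and WT skin differed in their response to TPA was tested as an interaction. No member passed, with a lowest adjusted p of 0.834 where 0% of all genes passed upward and 0.00519% downward. At an unadjusted p under 0.05 there was 1 member of 50, against 5.27% of all genes. limma-voom and DESeq2 called 0 members as well. The median log2 ratio of TPA to vehicle was 0.79 in KO and 1.02 in WT, each with 46 of 50 members above 0. The fitted interaction, KO minus WT, was below 0 for 38 of 50 members with a median of -0.23, and without WT vehicle 1 its median was 0.01. For the response to FA the interaction had 0 members past the test by edgeR, limma-voom and DESeq2, a lowest adjusted p of 0.9999 and a median of -0.09, against a background of 0% of genes called in either direction. At an unadjusted p under 0.05 there was again 1 member, against 3.18% of all genes. With single treated libraries, an absent call does not show that KO and WT skin responded alike.

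Many members share long stretches of sequence with other copies. The share of a member's 50-base windows absent from every other gene's transcripts ran from 6.1% to 100%, with a median of 56.5%, against a median of 9.8% for the 14 histone symbols with fewer than 10 counts. Of those 14, 12 had under 25% of such windows and 11 were at 0 in all libraries. How reads that match several copies were counted is not stated. Hist1h2aa, the testis H2A gene, was at 0 although 97.7% of its windows were its own. The 8 members with under 25% had a median of 216 counts over all libraries, and the 48 others one of 1409.5. Those 8 were Hist1h2af, Hist1h2ag, Hist1h2ai, Hist1h2an, Hist1h2bl, Hist1h2bn, Hist1h3h and Hist1h3i, and their values are uncertain. Whether the sharing lowered their counts was not tested. Exons of 16 members overlap those of other genes, and for 12 H2A members the overlap is with a miRNA model on the opposite strand, from which reads cannot be told apart because no strand setting is stated.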

How the data were processed

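The deposited files held raw read counts per Ensembl gene, 1 file a library, with no normalisation by the authors. The submitters' processing notes name Trim Galore, STAR, HTSeq and mm10. Versions, the strand setting, the handling of reads that match several genes and any depletion or selection of RNA were not given in the sources. Of 54232 identifiers, 54165 matched GENCODE M21.

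Tests used edgeR 4.0.16 (R 4.3.3; TMM, filterByExpr on treatment, minimum count 10, quasi-likelihood F tests, Benjamini-Hochberg over 19251 genes, threshold 0.05). Treatment and KO against WT were fitted additively on all 8 libraries. KO against WT in vehicle and the interactions were fitted with 1 mean per group, where single libraries were assumed to vary like the vehicle pairs. SE was the absolute log2 fold change over the square root of F. The fits were tested on simulated counts. To check for a library deposited more than once, the vehicle pairs were compared: chi-square over its degrees of freedom was 12.37 for the KO and 27.57 for the WT pair over all genes, and 4.37 and 4.61 over the members, more than sampling noise gives. The labels number them as separate samples, and whether they came from separate animals is not stated.

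Alternatives were RLE, library size only, no filter, a minimum of 50, limma-voom (limma 3.58.1), DESeq2 1.42.0, Gm26917 removed, 1 mean per group, vehicle libraries alone (replicate block or none), and each library left out. Members and gene lists (histone mRNA processing, replication-independent histones, chaperones, DNA replication, mitosis, RNAs without a poly(A) tail, and cell markers) were chosen with earlier results of these data known. Members named were the 4 highest by CPM of each type, the 5 largest rises and falls past the threshold per comparison, and 9 fixed genes (Hist1h1c, Hist1h2bc, Hist2h2be, Hist3h2a, Hist3h2ba, Hist4h4, Hist1h1t, Hist1h2ba and Hist1h2aa). From each list up to 3 members with the smallest p were eligible, and Ddit4, Slbp, H2afz, H3f3b, Mki67 and Gm26917 always. Other members, and H3f3a, Slc25a10, Nfyb, Cd8a and Cd4, are named where a count or a limit needed it, chosen after their values were seen.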

Additional observations from a re-analysis of the deposited data

How the results depend on the processing

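The count of members higher with TPA was between 31 (library size only) and 38 (no filter) under the other settings and between 29 (without WT TPA) and 39 with 1 library left out, against 37, and the count lower was 2 in every setting but those that left out KO TPA or WT TPA, with 0 and 1. Scaling by library size alone moved the median of all genes to -0.25 for TPA and -0.23 for FA+TPA against vehicle, with member medians of 0.70 and 0.90. The summed level as a share of raw counts gave 0.47 for TPA and 0.71 for FA+TPA against vehicle. For FA+TPA against TPA, 1 member was called higher without the filter, and between 0 and 1 with 1 library left out. For FA+TPA against vehicle, 2 were called lower with library size only and between 0 and 1 with 1 library left out. For KO against WT over all treatments, 1 was called higher under RLE, a minimum of 50, limma-voom, DESeq2, without Gm26917, with 1 mean per group and with each library left out, and 5 without the filter, where genes near the floor enter, while the number lower ran from 0 to 4 with 1 library left out. In vehicle skin the number higher in KO was 1 to 11 and the number lower 0 to 1 with 1 library left out. The interaction of genotype with TPA had 0 to 2 members lower with 1 library left out. With 1 library left out the summed level lay 0.65 to 0.76 above vehicle with TPA, 0.81 to 1.04 above it with FA+TPA and 0.10 to 0.33 above TPA with FA+TPA, an alternative chosen after seeing the data. No called value of a single named member changed sign, but without WT vehicle 1 the member medians did for KO against WT in vehicle skin, to -0.02 against 0.15, and for the interaction with TPA, to 0.01 against -0.23. The median for KO against WT over all treatments, near 0, took either sign among the alternatives. Of 749 values of single members under an alternative, 681 kept their side of the threshold and 68 lost it. The cause was not tested in any of these cases.

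The replicate numbers of the vehicle samples did not pair them: deviations of same-numbered samples correlated at -0.0588 over 19251 genes. With the number as a block on the vehicle libraries alone, 3 members were called higher in KO, against 1 without the block.

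Precision is limited by 1 library per treated group, by counts near the floor for the low H2A and H2B copies, and by reads shared between copies.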
